A study of Mus musculus with 6 samples.

Results

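The loci described here are those of 9 genes of transforming growth factor beta (TGF-β) supply and reception, in ATAC-seq libraries of cultured mouse vascular smooth muscle cells. In ATAC-seq the transposase Tn5 inserts adapters where chromatin is accessible, and a peak is a stretch with many insertions. The genes are the ligands Tgfb1, Tgfb2 and Tgfb3, the latency gene Ltbp1, the receptors Tgfbr1, Tgfbr2 and Acvrl1, and the co-receptors Tgfbr3 and Eng. A region belonged to a locus when it overlapped the RefSeq gene body plus 20 kb on each side (mm10). Peaks of the 6 libraries that overlapped by at least 1 base were first merged into regions. This gave 126 regions of 85174 in all.

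All 6 libraries came from commercially obtained primary mouse cells, with 50000 cells per assay. The 3 control libraries received a negative control siRNA treatment, labelled Negative Control. The 3 knockdown libraries were labelled si-Arid3a#1, si-Arid3a#2 and si-Arid3a#3, for siRNA against Arid3a, an AT-rich DNA-binding factor. Whether these numbers stand for different siRNAs or for replicates is not said. The spread among the knockdown libraries may therefore include differences between siRNAs. Cells were kept for 24 h after transfection. The labels do not name separate cultures, so the spread between libraries of a group may be technical. They also describe an angiotensin II treatment without naming the libraries that received it. No measurement of Arid3a RNA or protein was used here.

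The lists held 33248 to 52091 peaks. Control 2 had the shortest list and knockdown 3 the next shortest, with 41629 peaks. Both had a median of 8 tags at a peak's summit, against 11 in each other library. Of the smooth muscle markers Acta2, Tagln, Cnn1, Myh11, Smtn and Myocd, 3 of 6 (Acta2, Tagln and Smtn) had a region with a peak in 6 of 6 libraries within 1 kb of a start or gene end, and Myh11 had no region there. Over all genes that share was 37.9% with a listed start and 33.0% without one. Of 5 endothelial, 4 leukocyte and 3 fibroblast markers, 0, 0 and 0 had such a region.

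TGF-β is secreted as a latent complex that binding proteins such as LTBP1 anchor in the matrix. Once released, the ligand brings a type II and a type I receptor kinase together, and these phosphorylate SMAD proteins that move to the nucleus. In arteries the pathway is known for its part in smooth muscle contractile genes and matrix production, and inherited defects of its receptors and ligands are known from aneurysm disorders. Eng and Acvrl1 are best known from endothelial cells, where they serve the related BMP9 branch.

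Start sites and promoter sequences came from a RefSeq table of GRCm38.p6, the assembly of mm10, which listed 8 starts for 6 of the 9 genes. For Tgfb3, Tgfbr3 and Acvrl1 both gene ends were used, so a region there may lie at the first or the last part of the transcript. The tables used hold gene spans and not exon models, so 'inside the gene' may mean exon or intron. Of the 5 promoters below, those of Tgfbr1, Tgfbr2 and the downstream start of Ltbp1 had a called peak in every library within 1 kb. They were chosen to stand beside the starts of Tgfb1, with a called peak in 1 library, and Eng, with none. Each line gives the 250 bases before a start, 5′ to 3′ on the gene's strand. Capitals mark matches on either strand to motifs searched by their letters. The GC box is GGGCGG, which binds SP-family factors. The CCAAT box binds the factor NF-Y. The SMAD box is CAGAC. The run ATTAAA is a core of ARID3A-type motifs.

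Tgfbr1, chr4:47352972-47353221, + strand: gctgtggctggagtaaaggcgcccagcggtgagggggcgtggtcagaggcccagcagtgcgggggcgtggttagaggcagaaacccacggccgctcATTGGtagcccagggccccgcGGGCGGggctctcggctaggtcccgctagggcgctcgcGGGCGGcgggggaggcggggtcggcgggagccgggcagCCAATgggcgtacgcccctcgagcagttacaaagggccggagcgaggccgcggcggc
Tgfbr2, chr9:116175364-116175613, - strand: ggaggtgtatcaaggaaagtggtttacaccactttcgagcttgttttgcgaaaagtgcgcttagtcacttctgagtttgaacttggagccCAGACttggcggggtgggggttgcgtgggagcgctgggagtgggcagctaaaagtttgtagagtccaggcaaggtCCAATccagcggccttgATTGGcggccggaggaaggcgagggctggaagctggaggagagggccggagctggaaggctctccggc
Ltbp1 downstream start, chr17:75178531-75178780, + strand: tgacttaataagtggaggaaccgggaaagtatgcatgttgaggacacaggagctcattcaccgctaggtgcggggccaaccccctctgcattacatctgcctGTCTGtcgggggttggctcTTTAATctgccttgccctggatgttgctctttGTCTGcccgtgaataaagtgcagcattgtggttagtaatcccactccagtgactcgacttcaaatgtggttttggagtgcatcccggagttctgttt
Tgfb1, chr7:25686752-25687001, + strand: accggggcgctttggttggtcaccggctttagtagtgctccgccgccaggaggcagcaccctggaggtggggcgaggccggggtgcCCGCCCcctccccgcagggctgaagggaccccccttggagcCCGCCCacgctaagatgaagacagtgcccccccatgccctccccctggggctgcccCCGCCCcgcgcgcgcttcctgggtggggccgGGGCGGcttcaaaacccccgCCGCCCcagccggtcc
Eng, chr2:32646345-32646594, + strand: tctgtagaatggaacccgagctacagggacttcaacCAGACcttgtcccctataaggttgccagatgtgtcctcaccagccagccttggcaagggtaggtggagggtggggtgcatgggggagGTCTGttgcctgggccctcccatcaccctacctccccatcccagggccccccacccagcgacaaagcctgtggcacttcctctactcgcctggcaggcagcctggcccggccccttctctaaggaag

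The number of CpG did not sort the printed promoters into those with and without a region in every library. Tgfbr1 had 29 CpG and Tgfb1 had 21, Tgfbr2 had 12, the downstream start of Ltbp1 had 7 and Eng had 4, against a median of 10 over 21262 listed starts of protein-coding genes. Starts with a region in 6 of 6 libraries had a median of 17 CpG, and starts with none had 3. The promoter of Tgfb1 held 5 GC boxes and that of Tgfbr1 held 2, a motif found in 42.6% of all promoters of that length. The start of Tgfb1 had a peak in 1 of 6 libraries. Of the 4581 starts with at least 21 CpG, 59.4% had a region in 6 of 6 libraries and 15.1% had one in 0 or 1. The downstream start of Ltbp1 had a region in 6 of 6, as did 10.3% of the 9445 starts with at most 7 CpG. The start of Eng, with 4 CpG, had none within 1 kb, as did 83.2% of the 7170 starts with at most 4 CpG.

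CCAAT, a motif of 35.4% of promoters, stood 2 times before Tgfbr2 and 2 times before the first start of Tgfbr1. It stood 3 times before the upstream start of Ltbp1 and 1 time before Tgfb2, whose start region was called in 4 libraries. Among the 8 member promoters, ATTAAA was found only before the downstream start of Ltbp1, against 11.0% of all promoters. Its first base lies at -129, counted back from the start. CAGAC stood before 6 of the 8 starts, all but those of Tgfb1 and the first of Tgfbr1, against 40.8% of all promoters. TATAAA, in 11.6% of promoters, and the E-box CACGTG, in 6.63%, were found only before Tgfb2. None of the 8 held an AP-1 site (TGANTCA, 6.13% of all), an ETS site (CCGGAAG, 8.98%) or a CArG box (1.39%). No base lay in 2 motifs. A match is a run of letters and not a measured binding site.

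Across the 9 loci, 39 of 126 regions (31.0%) had a peak in 6 of 6 libraries, against 24.4% of all merged regions. A further 38 (30.2%) were called in a single library, against 33.5% of all. The other 49 regions were called in 2 to 5 libraries, and 38 of these lacked a peak in control 2. Of the 11 called in 5 libraries, 6 lacked control 2 and 3 lacked knockdown 3, the libraries with the shortest lists. Over all 9050 regions in 5 libraries, 57.3% lacked control 2 and 24.0% lacked knockdown 3.

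**Figure D1:**
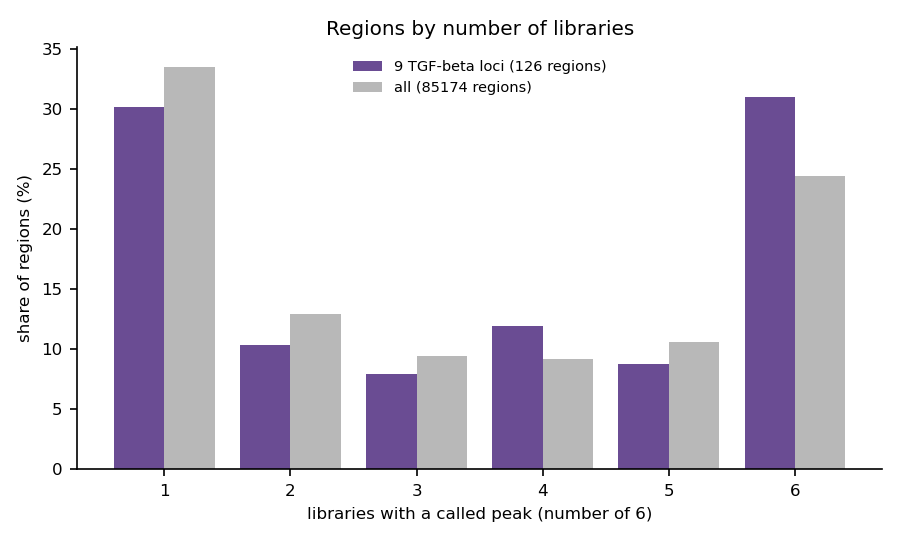
Bars give the share of regions (%) by the number of libraries, of 6, with a called peak, for the 126 regions of the 9 loci and for all 85174 regions. Both distributions have a high end at 1 library (30.2% and 33.5%) and at 6 libraries (31.0% and 24.4%).

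The shared regions were spread over the loci unevenly. Ltbp1, the longest gene at 387 kb, held 18 of the 39, Tgfbr3 held 7 and Eng 4. Tgfb1 held 3, Tgfb3, Tgfbr2 and Acvrl1 held 2 each, Tgfbr1 held 1 and Tgfb2 held 0. Per length, Eng (5.26 per 100 kb of window) and Tgfb1 (5.17) ranked above Ltbp1 (4.22), Acvrl1 (3.52), Tgfb3 (3.21), Tgfbr3 (3.14), Tgfbr2 (1.57) and Tgfbr1 (0.983). The median over 21883 protein-coding genes, 19.0% of which held 0 regions, was 1.46. Regions at or inside neighbouring genes count in these densities, and most shared regions of the Eng and Tgfb1 windows are of that kind.

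Counted per library, the density of regions had a spread that ranks the loci only coarsely. The SD is over control and knockdown libraries together and includes their differences in list length. All loci were counted in the same libraries, and differences between loci within a library were not compared. Tgfbr2 and Tgfbr1 were lowest, at 2.48 ± 0.916 and 2.79 ± 1.31 regions per 100 kb (SD, n = 6 libraries), a difference below either SD. Tgfb2 (4.60 ± 1.26) and Tgfb3 (4.82 ± 0.0) did not differ beyond the SD of Tgfb2. The same held for Ltbp1 (6.56 ± 0.755) and Tgfbr3 (6.65 ± 1.15), and for Tgfb1 (7.75 ± 1.81), Acvrl1 (7.92 ± 2.67) and Eng (9.42 ± 2.11) among themselves. The step from Tgfbr3 to Tgfb1 was below the SD of Tgfb1. The step from Tgfbr1 to Tgfb2 and that from Tgfb3 to Ltbp1 exceeded both SDs.

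**Figure D2:**
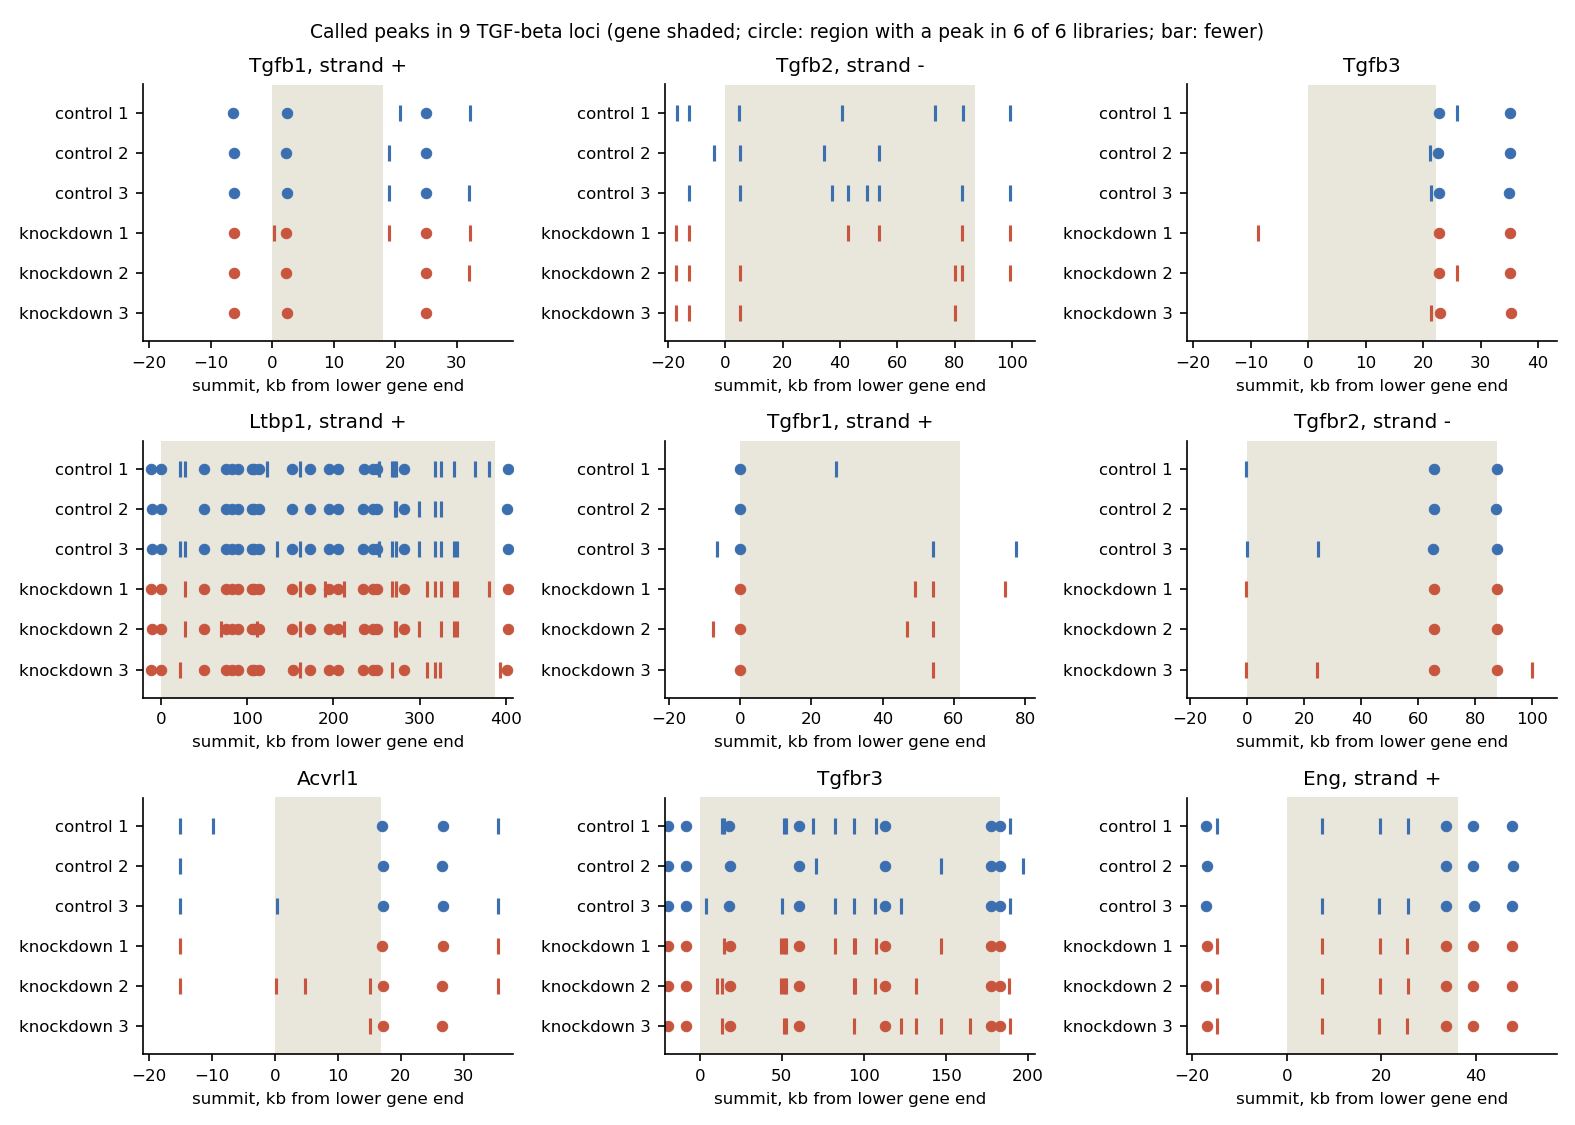
Each panel shows 1 locus, with the summit of the strongest peak of each region in kb from the lower-coordinate gene end on the x axis, the 6 libraries as rows and the gene shaded. Circles (regions in 6 of 6 libraries) line up through control and knockdown rows, in the largest number at Ltbp1 with 18, while Tgfb2 has bars alone.

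The regions in 6 of 6 libraries resembled such regions elsewhere in strength. Their median fold enrichment, the authors' value of a summit over its local background within a library, was 8.61 against 8.65 over all 20742. Their summits lay within a median of 136 bases of each other across libraries, against 139. The scaling of a fold enrichment is that of its own library, so the values below describe a region and measure no change between libraries.

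Of the ligand genes, Tgfb1 and Tgfb2 were judged at their listed start only, and Tgfb3 at both gene ends. Within 1 kb of the positions judged, only Tgfb3 had a region in 6 of 6 libraries. The gene (chromosome 12, 86056743 to 86079041) had a region over its upper end, 86079008 to 86079831, in 6 of 6 libraries. Fold enrichment there was 7.94, 4.58 and 6.08 in control 1 to 3 and 7.40, 7.43 and 4.80 in knockdown 1 to 3. The lowest values of both groups were those of control 2 and knockdown 3, and the groups overlapped. A second region at 86077840 to 86078153, inside the gene, was called in control 2, control 3 and knockdown 3, with 3.45 to 4.05 in fold enrichment. The strongest region of the window, 86091560 to 86092280, lay in the neighbouring gene Ift43 and was called in every library, with 7.20 to 12.7.

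Tgfb1, the most widely studied of the ligand genes, had a region called in every library near its start but none within 1 kb of it. Its gene lies on chromosome 7, 25687002 to 25705077, on the + strand. The only region within 1 kb of the start, 25687196 to 25687396, was called in knockdown 1 alone, with a fold enrichment of 4.12 and 8 tags. A region 2.42 kb into the gene, 25688914 to 25689936, was called in every library and is singled out here after its values were seen. It had 7.93, 6.68 and 6.57 in the control and 7.02, 5.38 and 5.30 in the knockdown libraries, which overlapped.

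The strongest region of the Tgfb1 window away from gene starts, 25711548 to 25712248, lay 6.47 kb above the gene, inside Ccdc97. It was called in 6 of 6 libraries with fold enrichments of 7.36 to 11.3. The remaining shared region, 25680424 to 25681147, covered a start of B9d2. Its fold enrichment was 12.3, 7.41 and 11.8 in the control and 10.7, 9.19 and 5.54 in the knockdown libraries, and the ranges overlapped. A window around a gene thus also holds the promoters of its neighbours: of the 126 regions, 5 lay within 1 kb of another gene's start or end (B9d2, Ccdc97, Ift43, Ak1 and Fpgs) and 7 more inside other genes.

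Tgfb2 (chromosome 1, 186622787 to 186709697, - strand) had 15 regions and was the only one of the 9 loci with none in 6 of 6 libraries. Of these, 8 were called in a single library. The region near its start, 186705194 to 186705719, was called in control 1, control 3, knockdown 1 and knockdown 2, with fold enrichments of 4.74, 6.85, 8.63 and 6.10. It was called in neither control 2 nor knockdown 3, the shortest lists. Its summits lay 407 to 575 bases downstream of the listed start. The strongest other region, 186609946 to 186610400, lay 12.4 kb below the gene and was called in 5 libraries, all but control 2, with 5.83 to 8.97. A region inside the gene, 186627328 to 186627877, was called in all but knockdown 1, at 4.15 to 7.38.

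Ltbp1, whose product ties latent TGF-β to fibrillin-rich matrix, was open at both listed starts and along much of its body. The gene lies on chromosome 17, 75005480 to 75392512, on the + strand, and 37 of its 42 regions lay inside it away from the starts. The region of the upstream start, 75004981 to 75006561, was 1581 bases wide, the widest of the 39 shared regions. Its fold enrichment was 7.08, 5.38 and 9.27 in the control and 7.31, 7.10 and 6.55 in the knockdown libraries. The knockdown values lay inside the control range.

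The downstream Ltbp1 start, whose promoter is printed above with its ATTAAA run, carried a stronger region, 75178085 to 75178886. Fold enrichment was 10.0, 7.59 and 13.1 in the control and 11.5, 11.2 and 10.8 in the knockdown libraries, on 20 to 50 tags. All 6 summits lay 109 to 245 bases upstream of that start, inside the printed stretch. Tgfbr1 also has a second listed start, 47386216, and no region lay within 1 kb of it.

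Inside Ltbp1, the region with the highest median fold enrichment was 75055347 to 75055817, at 12.0. Its values were 13.6, 5.17 and 14.3 in the control and 11.2, 12.8 and 9.34 in the knockdown libraries. Control 2 was lowest there, with 7 tags (95% exact Poisson interval 2.81 to 14.4, counting error only). The 18 shared regions of the locus ranged from 4.83 to 12.0 in median fold enrichment. The most sharply placed of them, 75255922 to 75256290, lay 77.3 kb downstream of the second start and is singled out after its values were seen. Its 6 summits fell within 32 bases of each other, on 20 to 49 tags, with fold enrichments of 10.7, 9.98 and 12.4 in the control and 13.3, 14.6 and 11.2 in the knockdown libraries. A further 4 regions inside the gene were called in 5 libraries, of which 2 lacked knockdown 3, 1 control 2 and 1 knockdown 2.

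The type I and type II kinases of TGF-β each had a listed start with a region in 6 of 6 libraries. Tgfbr1, the type I kinase of TGF-β, lies on chromosome 4, 47353222 to 47414926, and its first start was covered by the region 47352747 to 47353473. Fold enrichment was 9.44, 8.24 and 10.4 in the control and 13.6, 12.3 and 8.93 in the knockdown libraries. Knockdown 1 and 2 were highest, but knockdown 3 fell among the controls. Tags at the summit ran from 14 (95% exact Poisson interval 7.65 to 23.5) to 26 (17.0 to 38.1), and the summits lay 50 to 146 bases before the start, around the GC boxes printed above. It was the only region of 9 in that locus with a peak in every library, and 7 of the others were called in 1 library each.

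Tgfbr2, the type II kinase, had 6 regions, of which 2 were called in every library and 3 in a single library, at fold enrichments of 2.67 to 3.36. The gene lies on chromosome 9, 116087695 to 116175363, on the - strand. Its start region, 116174420 to 116175648, had a fold enrichment of 9.02, 6.26 and 8.01 in the control and 6.26, 9.09 and 7.08 in the knockdown libraries, and the groups overlapped. Summits lay 64 to 229 bases downstream of the start, so they were not in the printed bases. A stronger region inside the gene, 116152827 to 116153392, lay 22.3 kb downstream of the start. It had 18.1, 10.2 and 14.1 in the control and 17.5, 15.1 and 9.84 in the knockdown libraries. By fold enrichment it ranked within the top 11.6% of its list in all 6 libraries, from 0.411% in control 1 to 11.6% in knockdown 3.

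Acvrl1 (chromosome 15, 101128522 to 101145336), which encodes the type I receptor ALK1, had a region 0.148 kb above its upper end, 101145484 to 101145801, in 6 of 6 libraries. Fold enrichment was 12.2, 8.76 and 12.0 in the control and 9.40, 9.24 and 8.52 in the knockdown libraries. Control 1 and 3 were highest, and control 2 lay among the knockdown values. At the lower end, 101128335 to 101128784, a weak region was called in control 3 (4.0) and knockdown 2 (4.98) and in no other library. The other shared region of the locus, 101154932 to 101155388, lay 9.60 kb above the gene with 7.14 to 12.1.

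Tgfbr3, the gene of betaglycan, which presents ligand to the signalling receptors, held 26 regions. The gene lies on chromosome 5, 107106567 to 107289629. Its upper end was covered by 107289029 to 107289758 in every library, at 9.28, 5.79 and 6.72 in the control and 9.90, 9.30 and 7.82 in the knockdown libraries. The groups overlapped. The strongest region, 107087083 to 107087828, lay 18.7 kb below the gene, with 17.3, 11.6 and 17.1 in the control and 17.8, 15.2 and 15.3 in the knockdown libraries. It ranked within the top 3.00% of its list in all 6 libraries. Inside the gene 4 more regions were called in every library, at 107124516, 107166580, 107219239 and 107283848, with fold enrichments of 5.50 to 14.7. That at 107166580 to 107168009 was the widest of them, at 1430 bases. Its values were 8.51, 7.58 and 8.49 in the control and 10.4, 10.2 and 8.54 in the knockdown libraries. The highest control value, 8.51, and the lowest knockdown value, 8.54, nearly met. Tags at the summit were 23, 14 and 27 in the control and 30, 30 and 19 in the knockdown libraries, which overlapped. The region is singled out after its values were seen, and how many of all regions have such ranges was not computed. As fold enrichment is scaled within each library, these values measure no change between the groups.

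Eng, the gene of endoglin, had no region within 1 kb of its listed start but held the strongest region of all 9 loci by median fold enrichment, at 16.6. The gene lies on chromosome 2, 32646595 to 32682669, on the + strand. That region, 32679975 to 32680622, lay inside the gene, 33.7 kb from the start and near its far end. Fold enrichment was 16.8, 12.5 and 19.6 in the control and 16.9, 16.4 and 14.1 in the knockdown libraries, on 21 to 55 tags. It ranked within the top 1.65% of every list, and the knockdown values lay inside the control range. The next shared region, 32685757 to 32686166, singled out after its values were seen, lay 3.09 kb above the gene inside Fpgs, with 12.1 to 16.8. Starts or ends of Ak1 and Fpgs held the other 2 shared regions of the window. Between the start of Eng and its strongest region, 3 regions inside the gene lay 7.45, 19.7 and 25.7 kb from the start. All 3 were called in every library but control 2, with fold enrichments of 3.84 to 10.1.

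Beside these open regions of Eng and Acvrl1, the endothelial markers Pecam1, Cdh5, Tie1, Tek and Kdr held 23 regions in windows of the same kind, of which 4 (17.4%) had a peak in every library, against 24.4% of all regions. The share was 27.5% for the smooth muscle, 27.8% for the leukocyte and 46.2% for the fibroblast markers, on 40, 18 and 13 regions. At the endothelial starts or gene ends the most libraries with a peak was 0 for Pecam1, Cdh5 and Tie1, 1 for Tek and 2 for Kdr. The part of endothelial cells in the regions of Eng and Acvrl1 was not tested.

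**Figure D3:**
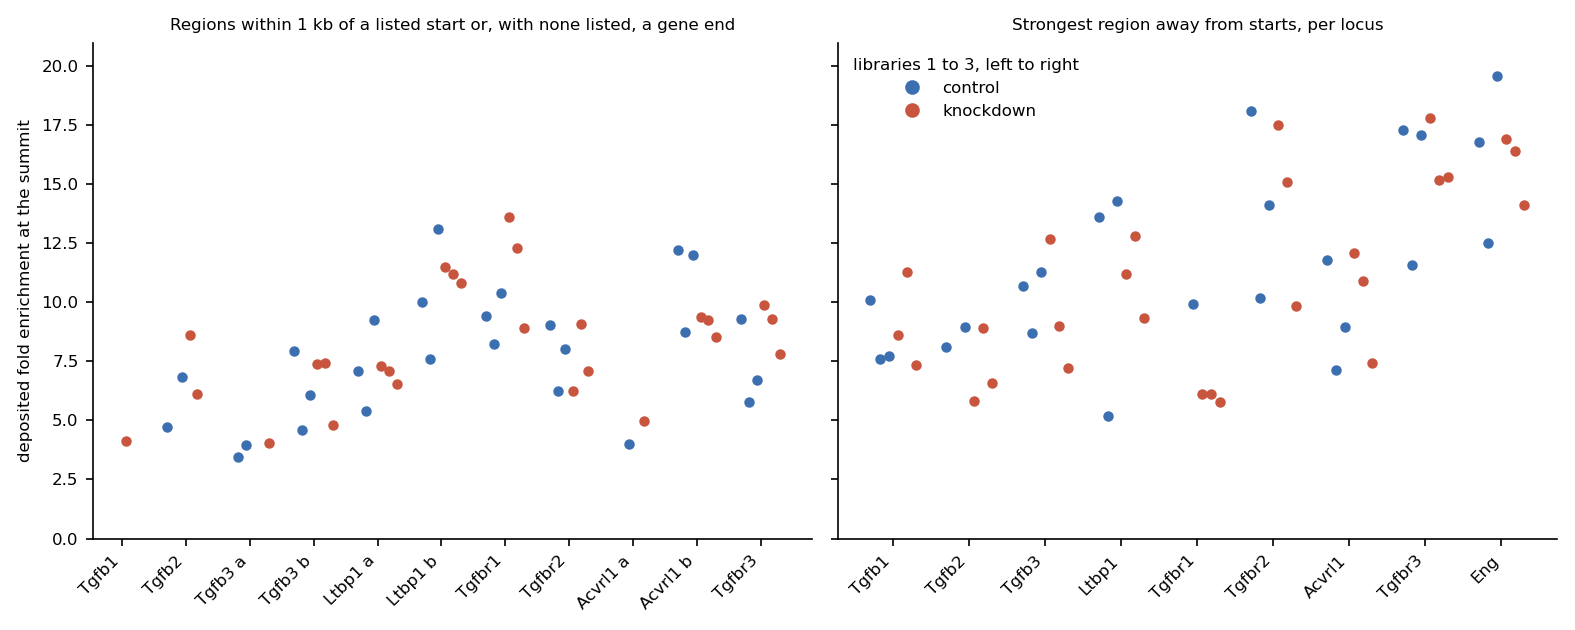
Points give the deposited fold enrichment at the summit (y axis, no unit) of each library with a peak, control in blue and knockdown in red, for regions near a start or gene end (left) and for the strongest region away from starts in each locus (right), where a and b are regions of the same gene in order of coordinate. The highest values are those of Eng, Tgfbr3 and Tgfbr2 on the right (up to 19.6), and Tgfb1 has a single point on the left (4.12).

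By presence of a called peak, no region of the 9 loci separated the Arid3a siRNA libraries from the controls. Of the 126, 0 were control-only, meaning a peak in 3 control libraries but none of the knockdown ones, against 0.277% of all regions. Likewise 0 were knockdown-only, against 0.432%. A count of 0 of 126 allows a share of up to 2.38%, which is above both background shares. The 39 regions open in every library included a region near a start or gene end for Tgfb3, Ltbp1, Tgfbr1, Tgfbr2, Acvrl1 and Tgfbr3. Of the 6 members with a listed start, 3 had such a region, against 37.9% of genes with a listed start. Of the 3 members without one, 3 had it at a gene end, against 33.0%.

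Regions in all libraries of one group and 1 of the other occurred in 1 direction. Of the 126, 5 (3.97%) were called in 3 knockdown libraries and 1 control library, against 1.72% of all regions. In the reverse pattern, 3 control libraries and 1 knockdown library, there were 0, against 1.09% of all and with a limit of 2.38%. None of the 5 was called in control 2, the shortest list. With all lists cut to its length, 1 of 86 member regions had the pattern, against 2.00% of all, and none of the 5 named next kept it. Among the 4 longest lists alone, a set chosen after seeing the data, 7 of 116 were in all knockdown and 1 control library and 6 in the reverse pattern, against 6.57% and 6.75% of all. Where the −log10 q had to reach 5, 1 of 83 had it, that of Tgfbr1, against 1.8% of all.

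Tgfbr1 carried 1 of the 5 inside the gene, 47407205 to 47407518, and it was the strongest region of that locus away from the start. It was called in control 3 (9.95) and in knockdown 1 to 3 (6.13, 6.14 and 5.77), so the highest fold enrichment was that of the lone control library. Tgfbr3 carried 2 inside the gene. The first, 107157488 to 107157786, was called in control 1 (5.86) and knockdown 1 to 3 (4.91, 9.95 and 7.87). The second, 107158765 to 107159093, was called in control 1 (9.24) and knockdown 1 to 3 (4.85, 5.34 and 5.71).

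At Eng, 32631724 to 32632179, 14.4 kb below the gene and inside Ak1, was called in control 1 (6.40) and knockdown 1 to 3 (5.97, 6.02 and 3.23). At Tgfb2, 186605560 to 186606000, 16.8 kb below the gene, was called in control 1 (4.91) and knockdown 1 to 3 (5.40, 3.73 and 5.19), on 6 to 8 tags. Of the 5 regions, 4 thus had control 1 as the lone control library. A region missing from a list was not called at the authors' cutoff, which does not show that it was closed.

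Numbers of regions per locus overlapped between the groups at all 9 loci. Tgfbr3 had 16, 10 and 14 regions in control 1 to 3 and 16, 17 and 16 in knockdown 1 to 3, or 13.3 ± 3.06 against 16.3 ± 0.577 (SD, n = 3; exact two-sided permutation p = 0.3). The difference of 3.0 was below the control SD, and control 2 was lowest. Eng had 8, 4 and 7 in the control libraries and 8 in each knockdown library, or 6.33 ± 2.08 against 8.0 ± 0.0 (SD, n = 3; exact two-sided permutation p = 0.4). Again control 2 alone held few.

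Ltbp1 had 31, 23 and 30 regions in the control and 30, 29 and 25 in the knockdown libraries, a mean of 28.0 in both groups. Tgfb2 had 7, 4 and 8 against 6, 6 and 4, and Tgfbr1 had 2, 1 and 4 against 4, 4 and 2. Tgfb3 had 3 in every library. In each of these loci but Tgfb3 the shortest lists, control 2 and knockdown 3, held the fewest of their group. For Tgfb1 the numbers were 5, 4 and 5 against 6, 4 and 3, for Tgfbr2 3, 2 and 4 against 3, 2 and 5, and for Acvrl1 5, 3 and 5 against 4, 7 and 3.

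No member locus had all 3 knockdown values above all 3 control values, against 1.15% of 17730 protein-coding genes with a region, and none had the reverse, against 0.654%. A count of 0 of 9 allows a share of up to 33.3%. With 3 libraries a group the smallest exact p is 0.1, so no locus could pass 0.05, and after Benjamini-Hochberg adjustment over all 17730 genes every adjusted p was 1. In that test 0 genes had an unadjusted p under 0.05. Without control 1, the values of Tgfbr3 and Eng no longer overlapped, knockdown above control, as for 3.64% of all loci. Without control 2 those of Tgfb2 no longer did, control above knockdown, as for 5.79%.

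**Figure D4:**
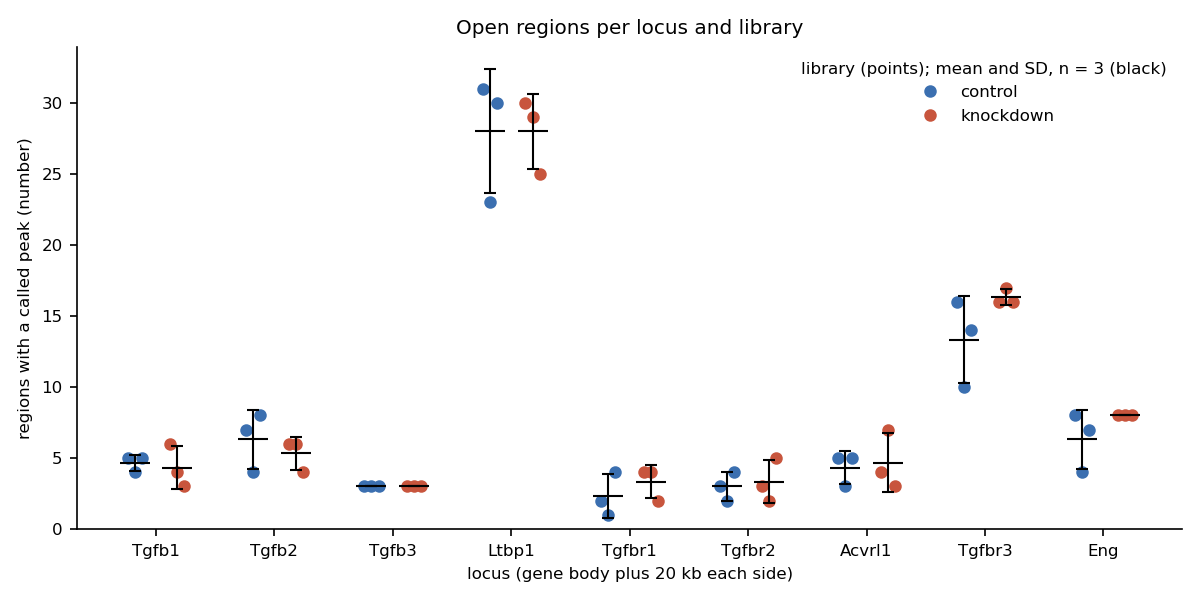
Points give the number of regions with a called peak per library (y axis) in each locus (x axis), control in blue and knockdown in red, with the mean and SD of 3 libraries in black. The groups overlap at each locus, from 1 to 4 regions per library at Tgfbr1 up to 23 to 31 at Ltbp1.

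A further 31 genes of the pathway cover latency, activation, receptors, SMAD signalling and targets. Their windows held 326 regions, of which 99 (30.4%) had a peak in every library, against 24.4% of all regions. Of the 31 genes, 16 had such a region near a start or gene end. Over all genes that share was 37.9% with a listed start, as 21 of the 31 have, and 33.0% without one. Among the 16 were Fbn1, which encodes the fibrillin that binds latent complexes, the latent TGF-β activators Thbs1 and Itgav, and the signal transducers Smad2 and Smad4. Genes without such a region included Ltbp2, Ltbp3, Ltbp4, Itgb6 and the signal transducer Smad3. At their starts or gene ends the most libraries with a peak was 5 for Ltbp2 and Smad3, 3 for Itgb6, 1 for Ltbp4 and 0 for Ltbp3. Of the 326, 1 was control-only, at Ccn2, against 0.277% of all regions. A further 3 were knockdown-only, at Lrrc32, Smad2 and Smurf1, against 0.432%. Their smallest −log10 q were 2.72, 3.68, 3.65 and 2.55, all of weak peaks.

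Lrrc32 encodes GARP, which holds latent TGF-β on the cell surface, and its knockdown-only region (chromosome 7, 98482545 to 98483127) had fold enrichments of 5.05, 4.31 and 4.72. Smurf1, a ubiquitin ligase gene acting on SMADs and receptors, had 4.59, 5.01 and 4.08 at 144914533 to 144915143 on chromosome 5. Of the 326 regions, 10 were called in 3 knockdown libraries and 1 control library, against 1.72% of all regions. In the reverse pattern there were 0, against 1.09%. Whether these pathway counts depend on list length, with control 2 the shortest list, was not tested. In the member loci, the pattern with 1 control library was that of 1 of 86 regions at equal list lengths, against 2.0% of all. Of the 31 loci, 1 (Smad2) had more regions in every knockdown than in every control library, against 1.15% of all loci, and 0 had the reverse, against 0.654%.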

How the data were processed

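ATAC-seq was read from 1 peak list per library, deposited by the authors. Bowtie2, Picard, MACS2 and the build mm10 are named in the submitters' processing notes; versions, settings, duplicate handling, any Tn5 shift and the control used in calling were not given in the sources used here. Kept duplicates could raise tag numbers, and a missing shift moves summits by a few bases. Each deposited peak has a fold enrichment (a ratio to the local background of its own library), a −log10 p and −log10 q, and a score, which is the whole part of the deposited −log10 q times 10. The lowest deposited −log10 q was 1.30 to 1.32 per library, as a q cutoff of 0.05 leaves.

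Peaks overlapping by 1 base were merged across libraries (Python 3.11.15, pandas 2.3.3, scipy 1.17.1), and a library was present where 1 of its peaks overlapped a region. Tags at a summit were solved from deposited fold and −log10 p under the Poisson model of MACS2, and a whole number matched within 0.001 for at least 99.996% of peaks. Group calls and tag recovery were tested on simulated data. Groups came from the treatment labels. Region numbers per locus were compared by exact permutation over 20 relabellings, for every protein-coding gene.

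The text names all 9 members and every region within 1 kb of a listed start or, with none listed, of either gene end. It also names the strongest other region of each locus (most libraries, then highest median fold). Every region in 3 of 3 libraries of a group and 0 or 1 of the other is named too. The members and the pathway and marker lists were chosen with earlier results of these data known. Values are not tested between libraries where they are deposited folds. Alternatives were equal list lengths, −log10 q of 5 or more, 50% cover, other windows and leaving out libraries. Promoter sequences are RefSeq's (GRCm38.p6), matched by symbol for 6 of 9 members. Sequence outside that table was not used here.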

Additional observations from a re-analysis of the deposited data

How the results depend on the processing

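The finding of no group-specific region in the 9 loci held with equal list lengths, with a −log10 q of at least 5 and with both other windows. Where peaks had to cover 50% of a region, 1 of 125 regions was control-only, at Tgfb2, against 0.409% of all regions. There 24 regions in place of 39 were in every library, as the share of all regions fell from 24.4% to 13.7%. With that rule 1 locus (Tgfbr3) had all knockdown above all control values, against 1.2% of all loci. At a −log10 q of 5 or more, 25 of 83 regions were in every library, against 25.2% of all. Regions in 3 knockdown libraries and 1 control library numbered 1 of 86 with equal list lengths in place of 5, against 2.0% of all. They numbered 1 of 83 at a −log10 q of 5 or more, against 1.8%, and 3 of 92 in gene bodies alone, against 1.72%.

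Leaving out 1 library gave 0 to 1 control-only regions, against 0.492% to 1.9% of all regions, and 0 to 4 knockdown-only, against 0.58% to 1.96%. In every remaining library there were 38 to 45, against 26.2% to 31.5% of all. In all control and 1 knockdown library there were 0 to 4, against 1.75% to 4.27%. The reverse pattern had 5 to 10, against 2.68% to 8.06%, and the 10 were of 120 without control replicate 3, against 8.06%. Such counts rise by construction, since fewer libraries have to be alike. The 4 knockdown-only regions appeared without control replicate 1, at Eng, Tgfb2 and Tgfbr3, and were 4 of 117, against 1.32% of all regions. Loci whose numbers did not overlap then ran from 0 to 2 with knockdown above (Tgfbr3 and Eng, without control replicate 1, against 3.64% of all loci) and from 0 to 1 with control above (Tgfb2, without control replicate 2, against 5.79%). With only the 4 longest lists, chosen after seeing the data, 2 of 116 regions were control-only (2.70% of all regions), 2 were knockdown-only (2.44%), 6 were in all control and 1 knockdown library (6.75%) and 7 in the reverse pattern (6.57%). There 1 locus, Tgfb2, had control above, against 7.5% of all loci. That set has 2 libraries a group, and 55 of its 116 regions were in every library, against 40.2% of all. With the wider window of 50 kb and all 6 libraries, 55 of 178 were, against 24.4%.

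With the replicate block, in which same-numbered libraries form pairs, 0 loci had all 3 differences above 0 and 0 had all below. The numbers share only a label: log2 fold deviations of same-numbered libraries over 20742 regions correlated at 0.0414, -0.0542 and -0.0522, and only number 1 correlated best with itself across the groups. The median of 8 to 11 tags per summit limits the precision of any single peak, and why a region is missing from a list was not tested.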
